A study of Arabidopsis thaliana with 32 samples.

Results

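GAI, RGA, RGL1, RGL2 and RGL3 encode the DELLA repressors of Arabidopsis thaliana, GID1A, GID1B and GID1C its gibberellin receptors, and SLY1 the F-box protein that joins them at the last step of gibberellin signalling. These 9 genes were chosen by their identifiers and not by a measured value, although earlier results of these data were known. They were 9 of the 33602 genes in the count table, and 9 of 9 passed the filter on low counts, which kept 20145 genes. RNA was measured by stranded poly(A) RNA-seq in whole Col-0 wild-type seedlings that were not sorted by organ. All seedlings grew for 3 days in constant white light at 21 °C. They then spent 1, 3, 6 or 24 h at 21 °C in white light to which far-red was added (21FR, an R/FR of 0.6), at 30 °C in white light (30WL), at 30 °C in that far-red enriched light (30FR), or stayed at 21 °C in white light (21WL). Each of the 16 groups had 2 libraries, each from a pool of about 25 seedlings, which makes 32 libraries in all.

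Gibberellin is a growth hormone that acts by removing repressors. DELLA proteins sit in the nucleus and hold back growth, in part by binding transcription factors such as the PIFs. When gibberellin binds a GID1 receptor, the receptor closes over the hormone and takes hold of a DELLA protein at its N-terminal DELLA domain, and the SCF complex that contains SLY1 then marks the DELLA for degradation by the proteasome. In seedlings this route is known for its part in hypocotyl elongation, and DELLA proteins also raise transcription of several gibberellin synthesis and receptor genes. The libraries measured mRNA alone, and DELLA protein, which the hormone removes, was not measured in them.

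The DELLA domain is the stretch that the hormone-bound receptor takes hold of, so its coding sequence is shown for each of the 5 repressors. Each line gives 60 bases of the coding strand from RefSeq TAIR10.1. The capitals mark the 5 codons that spell DELLA in GAI, RGA and RGL2, and the 5 codons at the same place in RGL1 and RGL3, whose translation did not give that motif. The place was found from the conserved codons that follow it, and the first capital codon is codon 28 of GAI, 44 of RGA, 32 of RGL1, 44 of RGL2 and 34 of RGL3.
GAI: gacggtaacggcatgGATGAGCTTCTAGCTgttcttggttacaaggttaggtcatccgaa
RGA: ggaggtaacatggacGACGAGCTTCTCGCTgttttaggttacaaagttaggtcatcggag
RGL1: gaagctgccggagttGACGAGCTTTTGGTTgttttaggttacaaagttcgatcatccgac
RGL2: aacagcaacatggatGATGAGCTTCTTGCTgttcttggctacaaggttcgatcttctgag
RGL3: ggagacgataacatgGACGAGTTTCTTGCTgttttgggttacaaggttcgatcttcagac

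These stretches lie at chr1:5149480-5149539 (plus strand) for GAI, chr2:257171-257230 (minus) for RGA, chr1:24748405-24748464 (plus) for RGL1, chr3:821106-821165 (minus) for RGL2 and chr5:5765744-5765803 (minus) for RGL3. Each DELLA gene and SLY1 had 1 coding exon in this annotation, and each GID1 gene had 2. The genes span chr1:5148982-5151415 (GAI, AT1G14920), chr2:255247-257568 (RGA, AT2G01570), chr1:24748105-24750186 (RGL1, AT1G66350), chr3:819337-821652 (RGL2, AT3G03450) and chr5:5763989-5766246 (RGL3, AT5G17490). The receptors span chr3:1430363-1432844 (GID1A, AT3G05120), chr3:23289243-23291486 (GID1B, AT3G63010) and chr5:9628990-9631291 (GID1C, AT5G27320), and SLY1 (AT4G24210) spans chr4:12563279-12564482. The count table itself gives gene identifiers on TAIR10 and no positions.

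The family members are related in sequence, which matters for how reads were assigned. The coding sequences were 81.5% identical between GAI and RGA, 76.6% between RGL2 and RGL3, and 65.5 to 69.1% between the other DELLA pairs. GID1A and GID1C were 83.8% identical, and GID1B was 70.2 and 70.4% identical to them. Of the 50-base stretches of the annotated exons of these 9 genes, 0 had an exact second copy in the nuclear genome, which leaves stretches with a mismatch uncounted.

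Counts on genes ranged between 7606788 and 28170966 per library, with a median of 18502913. Reads that aligned to more than 1 place were counted on no gene. Their share of all reads listed for a library was 10.5 to 50.4%, highest in 30WL replicate 1 at 6 h. Markers of green tissue, root, phloem and epidermis were present in every library, and the seed storage gene CRU3 stayed between 0.0347 and 6.88 CPM. The shade marker PIL1 had 19.2 to 45.4 CPM in far-red supplemented light, against 0.486 to 1.35 CPM in white light. The heat-shock gene HSP101 had 22.0 to 368 CPM at 30 °C, against 11.5 to 30.9 CPM at 21 °C. Levels are given as CPM, a gene's counts scaled to a common library size (TMM). In whole seedlings, a change in RNA per cell and a change in the number of cells of a type cannot be told apart.

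Per kilobase of annotated exon, RGA was the most abundant of the 9 mRNAs, with a median of 40.7 CPM per kb over the 32 libraries. GID1A, SLY1 and GAI followed at 15.2, 14.9 and 14.1 CPM per kb, and their ranges over libraries overlapped (10.8 to 22.4, 11.4 to 18.9 and 8.71 to 25.7 CPM per kb). GID1B had a median of 7.98 and GID1C of 5.91 CPM per kb. RGL2, RGL1 and RGL3 were lowest, at 3.16, 2.55 and 1.72 CPM per kb, with ranges of 2.23 to 4.89, 1.17 to 4.04 and 1.03 to 2.54 CPM per kb. The span of RGA, 33.1 to 58.2 CPM per kb, lay above that of each other member. The counts behind these levels were 753 to 3197 per library for RGA and 247 to 1371 for GAI, but 36 to 208 for RGL1 and 29 to 161 for RGL3, so the 3 RGL genes were measured with less precision.

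In 21FR, GAI mRNA rose at 1, 3, 6 and 24 h and RGA mRNA at 3 h, and in 30FR both rose at each of the 4 times. A gene is said to have risen or fallen where its FDR was under 0.05 in the quasi-likelihood test of edgeR, with Benjamini-Hochberg adjustment across the 20145 genes. In 30FR over 21WL, 2, 4, 2 and 3 of the 9 genes passed at 1, 3, 6 and 24 h, each of them higher in 30FR, while 31.5, 24.0, 21.9 and 21.3% of all genes tested passed. In 21FR over 21WL, 1, 2, 1 and 1 of the 9 passed, again each higher, while 0.338, 0.477, 0.814 and 0.660% of all genes passed. In 30WL over 21WL, 1 gene passed at 1 h (GID1A, higher) and 1 at 3 h (RGL1, lower), where 23.0 and 20.1% of all genes passed. At 6 and 24 h of 30WL none of the 9 passed, where 12.4 and 12.3% of all genes did. The unadjusted p was under 0.05 for 1 and 2 of the 9 genes there, and 0 passed in edgeR's likelihood ratio test or in DESeq2. These 30WL libraries held 7606788 and 14924687 counts at 6 h and 8750851 and 12949448 at 24 h. Each lay below the series median of 18502913. These 3 comparisons share their 21WL libraries.

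The added effect of 1 signal on top of the other was compared within 30FR. In 30FR over 21FR, which adds 30 °C within low R/FR, 3, 4, 1 and 1 of the 9 genes were higher in 30FR at 1, 3, 6 and 24 h, beside 28.3, 28.9, 20.4 and 21.4% of all genes passing in either direction. In 30FR over 30WL, which adds low R/FR within 30 °C, 2, 3 and 1 genes were higher in 30FR at 1, 3 and 6 h, beside 0.784, 1.77 and 0.422% of all genes. At 24 h none of the 9 passed, beside 1.67% of all genes, with an unadjusted p under 0.05 for 5 of the 9 and 0 calls in the likelihood ratio test or DESeq2. Among 9 genes a single call is a large share, and no test of these shares was made.

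**Figure D1:**
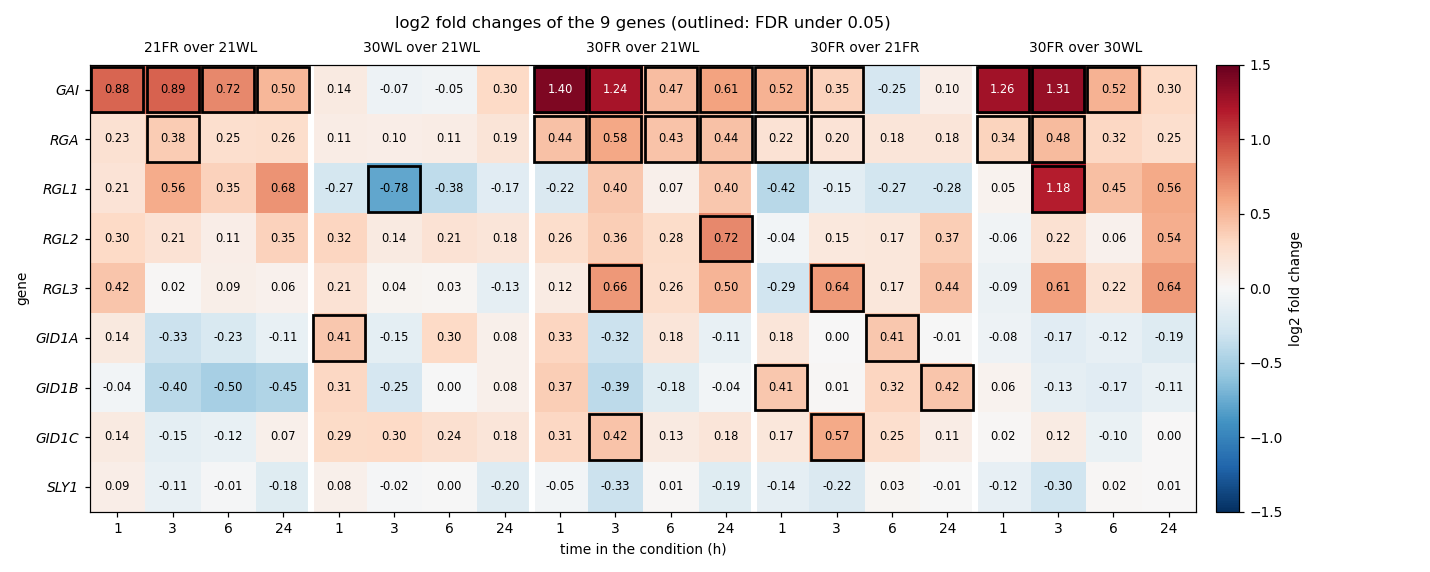
Grid of log2 fold changes, with the 9 genes as rows and 5 comparisons at 1, 3, 6 and 24 h as columns. Colour and the printed number give the log2 fold change, and an outline marks an FDR under 0.05 in edgeR's quasi-likelihood test. The outlined cells lie mostly in the rows of GAI and RGA and in the comparisons that contain 30FR, and the row of SLY1 has none.

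GAI is the DELLA gene first found through a gibberellin-insensitive dwarf. It had the largest log2 fold change over 21WL of the 9 in 21FR and in 30FR, at 1, 3 and 6 h. At 1 h it had 40.6 and 40.2 CPM in 21FR, 24.2 and 24.2 CPM in 30WL and 58.1 and 58.1 CPM in 30FR, against 22.8 and 21.2 CPM in 21WL. At 3 h it had 50.2 and 44.2 CPM in 21FR, 26.4 and 22.2 CPM in 30WL and 62.6 and 57.8 CPM in 30FR, against 26.5 and 24.6 CPM in 21WL. The libraries of 21FR and 30FR lay above each 21WL and 30WL library at both times, the 30FR libraries lay above those of 21FR, and 30WL overlapped 21WL at 3 h. At 6 h GAI had 53.7 and 44.6 CPM in 21FR, 30.5 and 27.3 CPM in 30WL and 43.3 and 39.1 CPM in 30FR, against 27.2 and 32.5 CPM in 21WL. At 24 h it had 36.4 and 36.4 CPM in 21FR, 31.2 and 32.1 CPM in 30WL and 38.2 and 40.0 CPM in 30FR, against 27.3 and 24.1 CPM in 21WL. At 6 h the order of the far-red groups turned, with both 21FR libraries above both 30FR libraries, and at 24 h both 30WL libraries lay above both 21WL libraries.

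GAI rose in 21FR at each time point. The log2 fold change over 21WL was 0.88, 0.89, 0.72 and 0.50 at 1, 3, 6 and 24 h, each with a standard error of 0.11 (FDR 7.84e-05, 0.000101, 0.000549 and 0.0240, edgeR quasi-likelihood with Benjamini-Hochberg). In 30FR it rose by 1.40, 1.24, 0.47 and 0.61 on the log2 scale over 21WL, with the same standard error (FDR 9.81e-09, 1.56e-07, 0.00313 and 0.000434, edgeR). In 30WL its log2 fold change over 21WL was 0.14, -0.07, -0.05 and 0.30, and it did not pass at any time point (lowest FDR 0.0790, edgeR). Within low R/FR, GAI was higher at 30 °C than at 21 °C at 1 and 3 h, where the log2 fold change of 30FR over 21FR was 0.52 ± 0.11 and 0.35 ± 0.10 (SE, FDR 0.000907 and 0.0151, edgeR). At 6 and 24 h it was -0.25 and 0.10, which did not pass (FDR 0.0896 and 0.525, edgeR), and the 6 h difference passed as a fall, at -0.41, without 21FR replicate 2 (FDR 0.0282). Within 30 °C, low R/FR raised GAI by 1.26, 1.31 and 0.52 on the log2 scale at 1, 3 and 6 h (FDR 3.62e-07, 2.54e-07 and 0.0323, edgeR), and at 24 h the difference was 0.30 (FDR 0.212).

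The GAI calls in 21FR at 1 and 3 h, in 30FR over 21WL at 1, 3 and 24 h, in 30FR over 21FR at 1 h and in 30FR over 30WL at 1 and 3 h passed with any 1 of the 32 libraries left out. With each time point fitted alone, the 21FR calls at 6 and 24 h ended (FDR 0.125 and 0.0668, edgeR). So did the calls of 30FR over 21FR at 3 h and over 30WL at 6 h (FDR 0.0544 and 0.412, edgeR). At 6 h, the 21FR call ended without 21WL replicate 1 (log2 fold change 0.56, FDR 0.0548) or 21FR replicate 1 (0.55, FDR 0.0517), and the 30FR call over 21WL ended without 21WL replicate 1 (0.30, FDR 0.116). At 24 h, the 21FR call ended without 21WL replicate 2 (0.41, FDR 0.324) or either 21FR library (0.50, FDR 0.191 and 0.204). The 30FR over 21FR call at 3 h ended without 21FR replicate 2 (0.27, FDR 0.161) or 30FR replicate 1 (0.30, FDR 0.115), and the 30FR over 30WL call at 6 h ended in 13 of the 32 runs (log2 fold change 0.43 to 0.59, highest FDR 0.428).

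**Figure D2:**
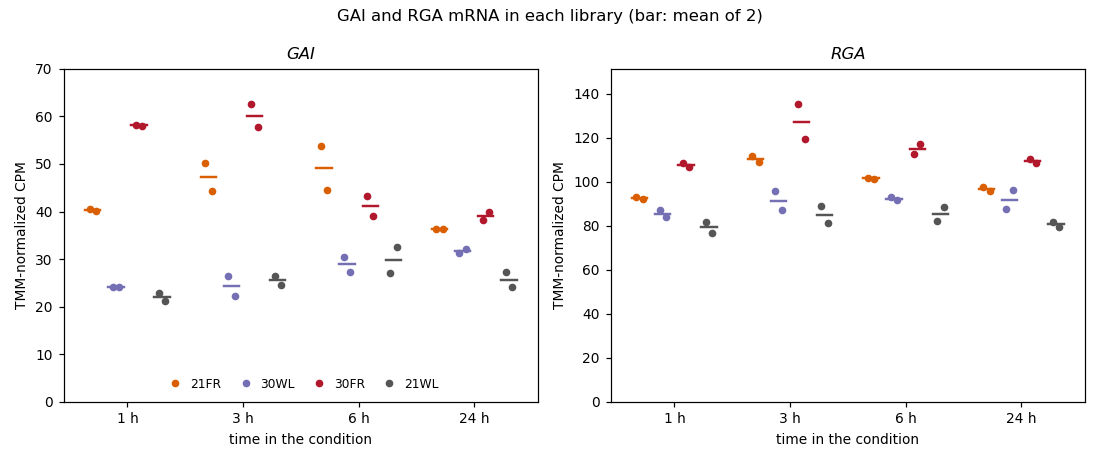
Level of GAI (left) and RGA (right) in TMM-normalized CPM on an axis that starts at 0, in each of the 32 libraries. Points are libraries, bars the mean of the 2 libraries of a group, colours the conditions 21FR, 30WL, 30FR and 21WL from left to right at each time point. GAI in 30FR stood near 58 to 63 CPM at 1 and 3 h and near 38 to 43 CPM at 6 and 24 h, and RGA in 30FR lay above the other 3 conditions at every time point.

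RGA is the most abundant DELLA mRNA and the closest relative of GAI. At 1 h it had 93.1 and 92.3 CPM in 21FR, 87.0 and 83.8 CPM in 30WL and 109 and 107 CPM in 30FR, against 81.7 and 76.8 CPM in 21WL. At 3 h it had 112 and 109 CPM in 21FR, 95.6 and 87.2 CPM in 30WL and 135 and 119 CPM in 30FR, against 88.8 and 81.3 CPM in 21WL. At both times each 30FR library lay above each library of the other conditions, and 30WL overlapped 21WL at 3 h. At 6 h RGA had 102 and 101 CPM in 21FR, 93.1 and 91.6 CPM in 30WL and 113 and 117 CPM in 30FR, against 82.0 and 88.6 CPM in 21WL. At 24 h it had 97.4 and 95.9 CPM in 21FR, 87.4 and 96.2 CPM in 30WL and 111 and 108 CPM in 30FR, against 81.7 and 79.6 CPM in 21WL. The 30FR libraries were again the highest at both times, and 30WL lay above 21WL without overlap.

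RGA rose in 30FR over 21WL by 0.44, 0.58, 0.43 and 0.44 on the log2 scale at 1, 3, 6 and 24 h, each with a standard error of 0.07 (FDR 0.000134, 1.28e-05, 0.000306 and 0.000270, edgeR quasi-likelihood). These 4 calls passed with any 1 library left out and in each alternative that asked for an FDR under 0.05 alone. In 21FR over 21WL the log2 fold change was 0.23, 0.38, 0.25 and 0.26, and RGA passed only at 3 h (FDR 0.0191, edgeR). The 3 h call ended with that time point fitted alone (FDR 0.336, edgeR). That call ended without any 1 of the 4 libraries it compares, with a log2 fold change of 0.31 to 0.42 and a highest FDR of 0.394. In 30WL over 21WL it was 0.11, 0.10, 0.11 and 0.19, which did not pass (lowest FDR 0.106, edgeR).

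Compared with the single treatments, RGA was higher in 30FR than in 21FR at 1 and 3 h by 0.22 and 0.20 on the log2 scale (FDR 0.0320 and 0.0407, edgeR). It was higher in 30FR than in 30WL at those times by 0.34 and 0.48 (FDR 0.0291 and 0.000727, edgeR). The 1 h calls each ended without any 1 of the 4 libraries they compare (highest FDR 0.147 over 21FR and 0.171 over 30WL). Both also ended without the filter on low counts (FDR 0.0739 over 21FR and 0.0769 over 30WL). The 3 h call over 21FR ended in 5 of the 32 runs (log2 fold change 0.12 without 30FR replicate 1), in the likelihood ratio test (FDR 0.0555) and without the filter (FDR 0.0938). The one over 30WL ended without 30WL replicate 2 (log2 fold change 0.40). With each time point fitted alone, the calls over 21FR ended at 1 and 3 h (FDR 0.0668 and 0.144, edgeR). Those over 30WL ended there too (FDR 0.198 and 0.0831, edgeR). At 6 and 24 h the difference from 21FR was 0.18 at both times (FDR 0.0911 and 0.0861) and that from 30WL 0.32 and 0.25 (FDR 0.0690 and 0.102, edgeR). The 6 h difference from 30WL passed in the likelihood ratio test and in DESeq2 (FDR 0.0450 and 0.0195).

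The 3 RGL genes are the less abundant DELLA members. RGL2 is known as the main DELLA repressor of seed germination, and RGL3 is known for its link to jasmonate signalling. RGL1 had 5.36 and 5.82 CPM in 21FR, 4.30 and 3.79 CPM in 30WL and 2.96 and 5.27 CPM in 30FR at 1 h, against 5.22 and 4.496 CPM in 21WL. At 3 h it had 7.70 and 6.89 CPM in 21FR, 3.44 and 2.44 CPM in 30WL and 7.595 and 5.57 CPM in 30FR, against 6.23 and 3.89 CPM in 21WL. The 30WL libraries held the 2 lowest RGL1 levels at 3 h. At 6 h RGL1 had 7.10 and 7.38 CPM in 21FR, 4.45 and 4.33 CPM in 30WL and 6.64 and 5.35 CPM in 30FR, against 6.42 and 4.95 CPM in 21WL. At 24 h it had 8.40 and 7.63 CPM in 21FR, 4.99 and 4.02 CPM in 30WL and 6.42 and 6.79 CPM in 30FR, against 4.93 and 5.09 CPM in 21WL. At each of these 4 times both 21FR libraries lay above both 21WL libraries, and the log2 fold change was 0.21, 0.56, 0.35 and 0.68, but RGL1 did not pass in 21FR (lowest FDR 0.339, edgeR).

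With all libraries in the fit, RGL1 was the one member with a fall that passed. In 30WL at 3 h its log2 fold change over 21WL was -0.78 ± 0.26 (SE, FDR 0.0386, edgeR), and at 1, 6 and 24 h it was -0.27, -0.38 and -0.17, which did not pass. At 3 h RGL1 was also 1.18 ± 0.25 higher in 30FR than in 30WL on the log2 scale (SE, FDR 0.0115, edgeR), while 30FR over 21WL was 0.40 (FDR 0.234). With 3 h fitted alone, the fall and the 30FR over 30WL call both ended (FDR 0.117 and 0.159, edgeR). At 1 h 30FR over 21FR was -0.42 (FDR 0.208), which passed at -0.92 without 30FR replicate 2 (FDR 0.0291). The fall ended without 21WL replicate 1 (-0.43, FDR 0.353) or 30WL replicate 2 (-0.53, FDR 0.311). The 30FR over 30WL call ended without 30WL replicate 2 (0.93, FDR 0.286) or 30FR replicate 1 (0.94, FDR 0.188).

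At 24 h RGL2 had 6.89 and 8.50 CPM in 21FR, 5.82 and 7.74 CPM in 30WL and 8.72 and 11.3 CPM in 30FR, against 6.34 and 5.77 CPM in 21WL. Both 30FR libraries lay above the other 6 at that time, and RGL2 rose in 30FR over 21WL, with a log2 fold change of 0.72 ± 0.22 (SE, FDR 0.0245, edgeR). The call ended without 21WL replicate 1 (0.79, FDR 0.0520), 21WL replicate 2 (0.65, FDR 0.164) or 30FR replicate 2 (0.53, FDR 0.230). At 3 h RGL3 had 3.60 and 3.48 CPM in 21FR, 3.73 and 3.51 CPM in 30WL and 5.36 and 5.69 CPM in 30FR, against 3.46 and 3.54 CPM in 21WL. The 30FR libraries stood above the other 6, which lay close together. The log2 fold change was 0.66 ± 0.20 over 21WL and 0.64 ± 0.20 over 21FR (SE, FDR 0.0214 and 0.0175, edgeR), and 0.61 over 30WL, which did not pass (FDR 0.131). At 24 h both 30FR libraries, at 5.59 and 5.74 CPM, again lay above both 21WL libraries, at 4.39 and 3.60 CPM, but the log2 fold change of 0.50 did not pass (FDR 0.0708, edgeR). The RGL3 call over 21WL ended without any 1 of the 4 libraries it compares (0.60 to 0.69, highest FDR 0.101), and it ended in DESeq2 (FDR 0.0535). The one over 21FR ended without either 21FR library or 30FR replicate 2 (FDR 0.0823, 0.0828 and 0.0719).

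**Figure D3:**
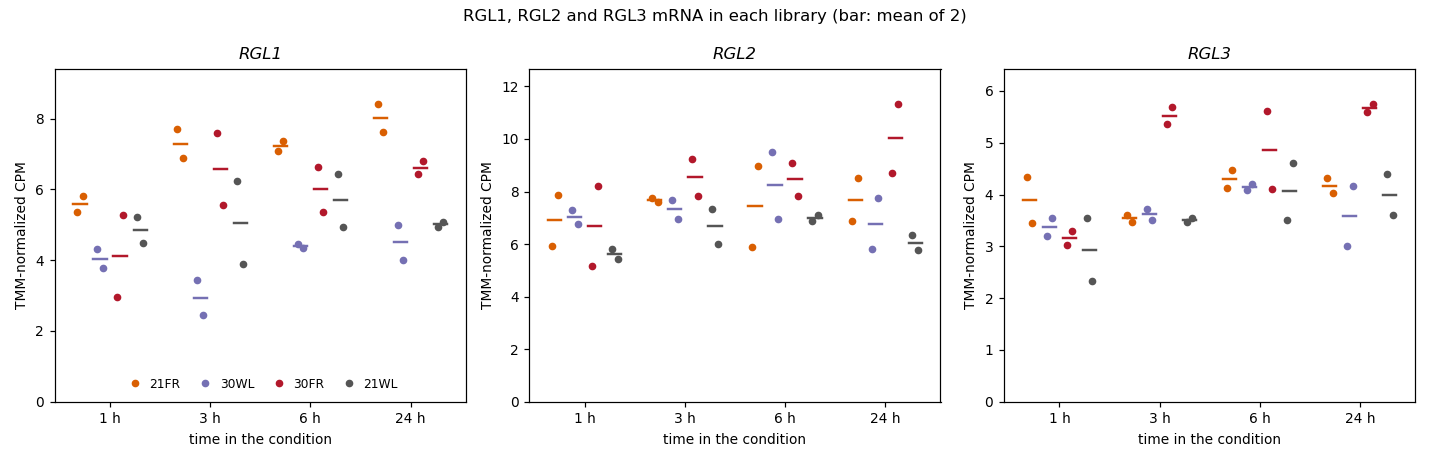
Level of RGL1, RGL2 and RGL3 in TMM-normalized CPM on axes that start at 0, drawn as points for libraries and bars for the mean of 2, with 21FR, 30WL, 30FR and 21WL from left to right at each time point. RGL1 in 30WL was lowest at 3 h (3.44 and 2.44 CPM), and RGL3 in 30FR stood apart at 3 h (5.36 and 5.69 CPM).

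Each of the 3 receptor genes passed 2 of its 27 tests, all in 30WL over 21WL, 30FR over 21WL or 30FR over 21FR. Of all gene tests, 16.9, 24.7 and 24.8% passed in these 3 comparisons. GID1A, the receptor gene with the highest mRNA level per kilobase of the 3, had 34.5 and 31.9 CPM in 21FR, 41.6 and 38.2 CPM in 30WL and 32.2 and 43.0 CPM in 30FR at 1 h, against 32.03 and 28.1 CPM in 21WL. It rose in 30WL at that time, with a log2 fold change of 0.41 ± 0.13 (SE, FDR 0.0298, edgeR). Both 30WL libraries lay above both 21WL libraries, while the 30FR libraries were far from each other and gave 0.33 (FDR 0.0647). Without 30FR replicate 1 that difference was 0.51 and passed (FDR 0.0136), and it also passed without 21WL replicate 1 or 2 of 24 h (FDR 0.0473 and 0.0403). At 6 h GID1A had 20.6 and 25.9 CPM in 21FR, 35.0 and 32.5 CPM in 30WL and 30.5 and 31.5 CPM in 30FR, against 29.5 and 25.1 CPM in 21WL. It was higher in 30FR than in 21FR by 0.41 ± 0.13 on the log2 scale (SE, FDR 0.0321, edgeR).

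At 3 h GID1A had 22.9 and 25.6 CPM in 21FR, 26.0 and 28.6 CPM in 30WL and 25.2 and 23.3 CPM in 30FR, against 30.5 and 30.2 CPM in 21WL, so that each treated library lay below both 21WL libraries. The log2 fold changes were -0.33, -0.15 and -0.32 and did not pass (FDR 0.558, 0.478 and 0.0863, edgeR). The difference in 30FR passed without 30FR replicate 1 of 1 h (FDR 0.0470) or 21WL replicate 2 of 24 h (FDR 0.0486). At 24 h each treated condition overlapped 21WL, and the 8 libraries lay between 24.3 and 31.2 CPM. With each time point fitted alone, the GID1A calls in 30WL at 1 h and in 30FR over 21FR at 6 h ended (FDR 0.0549 and 0.0764, edgeR). The GID1A call in 30WL at 1 h ended without 21WL replicate 2 (0.32, FDR 0.203), 30WL replicate 1 (0.35, FDR 0.153) or 30WL replicate 2 (0.47, FDR 0.0588). The 6 h call of 30FR over 21FR ended without 21FR replicate 1 (0.26, FDR 0.301) or either 30FR library (0.43 and 0.38, FDR 0.0821 and 0.135).

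GID1B, the receptor known for its high affinity for gibberellin, had 15.8 and 17.1 CPM in 21FR, 22.8 and 19.1 CPM in 30WL and 22.3 and 21.3 CPM in 30FR at 1 h, against 18.8 and 15.1 CPM in 21WL. At 3 h it had 14.9 and 14.5 CPM in 21FR, 17.7 and 15 CPM in 30WL and 16.2 and 13.5 CPM in 30FR, against 19.1 and 19.7 CPM in 21WL. Each treated library lay below both 21WL libraries at 3 h, whereas at 1 h both libraries of each 30 °C condition lay above both of 21WL. At 6 h GID1B had 10.5 and 13.7 CPM in 21FR, 17.3 and 17.1 CPM in 30WL and 14.7 and 15.7 CPM in 30FR, against 16.1 and 18.4 CPM in 21WL. At 24 h it had 12.04 and 12.2 CPM in 21FR, 18.7 and 16.4 CPM in 30WL and 15.9 and 16.4 CPM in 30FR, against 19.2 and 13.98 CPM in 21WL. In 21FR both libraries lay below both 21WL libraries at 3, 6 and 24 h.

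The log2 fold change of GID1B in 21FR over 21WL was -0.04, -0.40, -0.50 and -0.45 at 1, 3, 6 and 24 h, which did not pass (FDR 1, 0.434, 0.168 and 0.287, edgeR), although the unadjusted p was 0.0127, 0.00254 and 0.00634 at the last 3 times. GID1B did pass between the far-red groups. It was higher in 30FR than in 21FR by 0.41 ± 0.15 at 1 h and 0.42 ± 0.15 at 24 h on the log2 scale (SE, FDR 0.0426 and 0.0454, edgeR). Both calls lie close to the threshold, and they ended in 8 and 11 of the 32 runs that left out 1 library, including each library they compare (log2 fold change 0.36 to 0.46 and 0.39 to 0.44, highest FDR 0.190 for both). They also ended in DESeq2 (FDR 0.0506 and 0.0552). The 24 h call ended with that time point fitted alone (FDR 0.0785, edgeR). In 30FR over 21WL, GID1B was at a log2 fold change of 0.37 at 1 h and -0.39 at 3 h, and neither passed with all libraries in the fit (FDR 0.0594 for both, edgeR). Each passed in 5 of the 32 runs that left out 1 library (lowest FDR 0.0356 at 1 h and 0.0312 at 3 h, both without 21WL replicate 2 of 24 h).

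GID1C, whose coding sequence is closest to that of GID1A, had 10.3 and 8.69 CPM in 21FR, 13.8 and 12.2 CPM in 30WL and 14.8 and 13.5 CPM in 30FR at 3 h, against 10.9 and 10.2 CPM in 21WL. It was higher in 30FR than in 21FR by 0.57 ± 0.12 and than in 21WL by 0.42 ± 0.12 on the log2 scale (SE, FDR 0.00157 and 0.0167, edgeR). Both 30 °C conditions lay above both 21 °C conditions at that time, although 30WL over 21WL, at 0.30, did not pass (FDR 0.101). With 3 h fitted alone, the call over 21WL ended (FDR 0.0718, edgeR). The call over 21FR passed with any 1 library left out. The one over 21WL ended without 21WL replicate 1 (0.45, FDR 0.0598), 21WL replicate 2 (0.37, FDR 0.126) or 30FR replicate 1 (0.35, FDR 0.131). At 1, 6 and 24 h GID1C lay between 7.40 and 14.1 CPM in the 24 libraries and passed in no comparison with all libraries in the fit. At 1 h its log2 fold change in 30FR over 21WL was 0.31 (FDR 0.0670), which passed without 21WL replicate 1 or 2 of 24 h (FDR 0.0450 and 0.0485, edgeR).

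SLY1 passed none of its 27 tests in edgeR's quasi-likelihood test, in its likelihood ratio test or in DESeq2. Its level lay between 13.8 and 22.8 CPM over the 32 libraries, with group means of 15.3 to 21.0 CPM, the narrowest span of group means among the 9 genes (1.38-fold between the lowest and highest). The unadjusted p was under 0.05 in 2 tests, both at 3 h. There SLY1 had 17.4 and 18.2 CPM in 21FR, 18.7 and 19.2 CPM in 30WL and 13.8 and 16.8 CPM in 30FR, against 21.5 and 17.1 CPM in 21WL. Both 30FR libraries lay below both 21WL libraries, and the log2 fold change was -0.33 ± 0.14 (SE, FDR 0.0839, edgeR). Without 21WL replicate 2 or 30FR replicate 2 it was -0.49 and passed (FDR 0.0381 and 0.0337).

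**Figure D4:**
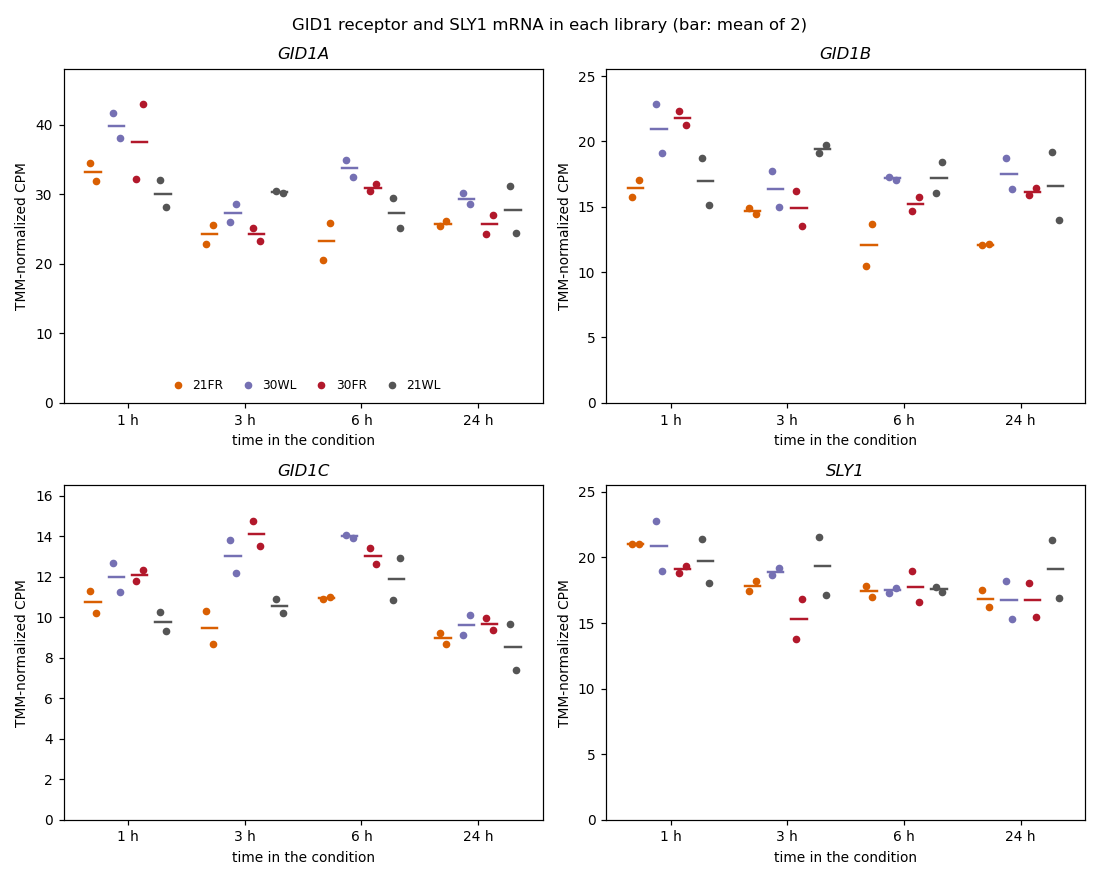
Level of GID1A, GID1B, GID1C and SLY1 in TMM-normalized CPM on axes that start at 0, drawn as points for libraries and bars for the mean of 2, with 21FR, 30WL, 30FR and 21WL from left to right at each time point. GID1B in 21FR lay below 21WL at 3, 6 and 24 h, GID1C at 3 h was highest in 30FR (14.8 and 13.5 CPM), and SLY1 stayed between 13.8 and 22.8 CPM.

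Whether low R/FR acted differently at 30 °C than at 21 °C was tested as an interaction, the log2 fold change of 30FR over 30WL minus that of 21FR over 21WL. For GAI it was 0.38, 0.42, -0.20 and -0.20 at 1, 3, 6 and 24 h, with a standard error of 0.15 each, and it did not pass (FDR 1, 0.726, 1 and 0.839, edgeR). The unadjusted p was 0.0196 and 0.0111 at 1 and 3 h. None of the 36 member tests of the interaction passed in edgeR's quasi-likelihood test, in its likelihood ratio test or in DESeq2, and 2 had an unadjusted p under 0.05, both of GAI. Of all genes tested, 0, 0, 0 and 0.0149% passed at 1, 3, 6 and 24 h. The difference of GAI between 30FR and 21FR at 1 and 3 h thus compares those 2 groups and is not a test of the interaction.

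In the untreated seedlings, 0 of the 9 genes passed at 3, 6 or 24 h over 1 h of 21WL, beside 0.00993, 0.486 and 5.39% of all genes. Over these 27 tests 4 had an unadjusted p under 0.05, and 1 passed in the likelihood ratio test and 1 in DESeq2, in both the difference of GAI at 6 h. The GAI level was 27.2 and 32.5 CPM at 6 h, against 22.8 and 21.2 CPM at 1 h, a log2 fold change of 0.44 ± 0.11 (SE, FDR 0.0762 in the quasi-likelihood test, 0.0397 in the likelihood ratio test and 0.0202 in DESeq2). It passed the quasi-likelihood test without 21WL replicate 1 at 24 h (FDR 0.0460).

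Summed over the 5 repressors, DELLA mRNA per kilobase was highest in 30FR at 3 h, at 88.8 ± 7.24 CPM per kb, beside 75.3 ± 2.89 in 21FR and 55.5 ± 4.41 in 30WL, against 54.0 ± 4.01 CPM per kb in 21WL (SD, n = 2 each). At 1 h the sum came to 63.9 ± 0.105 in 21FR, 53.2 ± 1.19 in 30WL and 76.6 ± 1.25 in 30FR, against 49.2 ± 2.70 CPM per kb in 21WL. At each of the 4 times both libraries of 21FR and of 30FR lay above both of 21WL. RGA made up 59.5 to 71.6% of the DELLA sum in any library and GAI 17.4 to 31.6%. The GAI share at 1 h was 26.0 ± 0.218% in 21FR, 18.7 ± 0.419% in 30WL and 31.2 ± 0.527% in 30FR, against 18.4 ± 0.0602% in 21WL (SD, n = 2 each).

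The summed receptor mRNA at 1 h was 31.2 ± 0.899 in 21FR, 37.6 ± 3.11 in 30WL and 36.9 ± 3.79 in 30FR, against 29.3 ± 3.06 CPM per kb in 21WL, and at 3 h 25.0 ± 0.203, 29.3 ± 0.609 and 27.6 ± 2.1 in 21FR, 30WL and 30FR, against 31.1 ± 0.187 CPM per kb in 21WL (SD, n = 2 each). The DELLA sum divided by the receptor sum was 3.01 ± 0.140 in 21FR, 1.89 ± 0.111 in 30WL and 3.21 ± 0.0176 in 30FR at 3 h, against 1.74 ± 0.119 in 21WL. At 24 h it was 2.70 ± 0.0264, 2.03 ± 0.193 and 2.75 ± 0.0710 in 21FR, 30WL and 30FR, against 1.94 ± 0.296 in 21WL. Both far-red conditions lay above both white-light conditions in this ratio at every time, without overlap of libraries. These are ratios of mRNA levels, and no test was made of them.

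**Figure D5:**
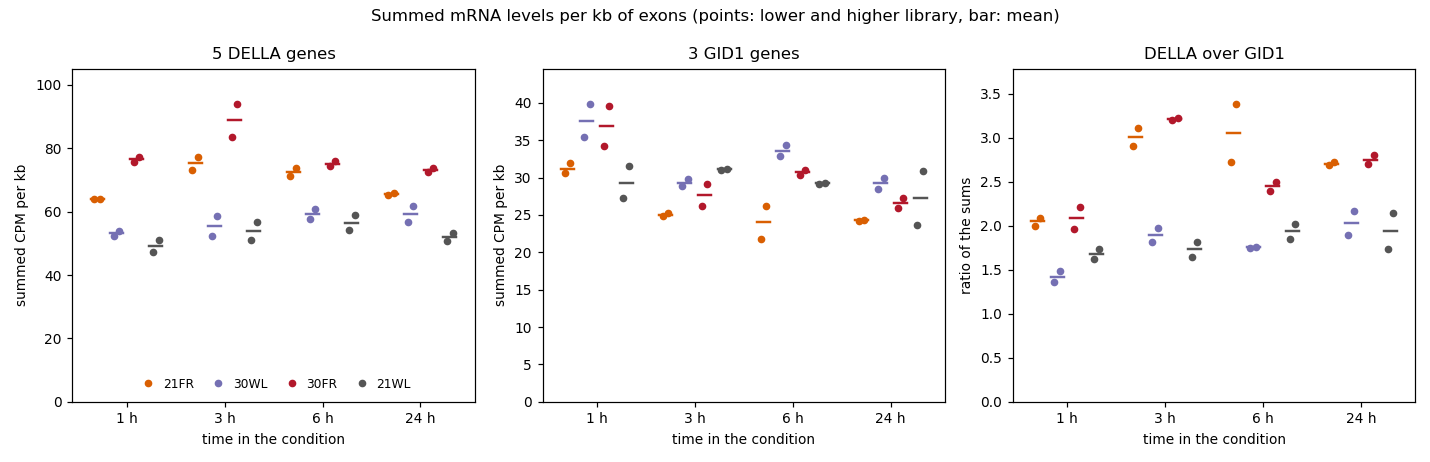
Summed level of the 5 DELLA genes (left) and of the 3 GID1 genes (middle) in CPM per kb of exon, and the ratio of the 2 sums (right), on axes that start at 0. Points are the lower and higher library of a group and bars the mean of 2, with 21FR, 30WL, 30FR and 21WL from left to right at each time point. The ratio at 3 h was 3.01 in 21FR and 3.21 in 30FR, against 1.74 in 21WL.

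Other genes of the pathway were taken from 4 lists fixed by identifier, also with earlier results of these data known. Of 16 modifiers of gibberellin signalling and DELLA partners, 2 of the 64 gene-by-time tests over 21WL passed in 21FR, both lower, 8 were higher and 6 lower in 30WL, and 10 were higher and 6 lower in 30FR. Of 14 measured synthesis and inactivation genes (17 listed, 56 tests), 5 tests were higher and 2 lower in 21FR, 6 higher and 4 lower in 30WL, and 12 higher and 7 lower in 30FR. Over the 4 time points 0.572, 16.9 and 24.7% of all gene tests passed in 21FR, 30WL and 30FR. Among them GA20OX3, which makes gibberellin precursors, rose in 21FR at 1 h by 2.46 on the log2 scale (FDR 0.000682, edgeR), and GA2OX1, which inactivates gibberellin, rose at 6 h by 2.69 in 21FR and 2.17 in 30FR (FDR 7.49e-05 and 0.000107, edgeR).

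Genes known to be raised by DELLA proteins, with the 9 left out, moved in both directions. Of 11 such genes (44 tests), 4 tests were lower in 21FR, 7 higher and 4 lower in 30WL, and 6 higher and 12 lower in 30FR. Beside these, 0.572, 16.9 and 24.7% of all gene tests passed in 21FR, 30WL and 30FR, in either direction. In 30FR over 21WL, 4 rose and 1 fell at 1 h, 4 fell at 3 h, 2 rose and 4 fell at 6 h, and 3 fell at 24 h. The share of all genes that passed there was 31.5, 24.0, 21.9 and 21.3%. The median log2 fold change of the 11 genes in 30FR was 0.31, -0.32, -0.37 and -0.19 at 1, 3, 6 and 24 h, beside -0.02, 0.00, 0.02 and 0.01 over all genes. SCL3, a GRAS protein that opposes DELLA action and that DELLA proteins induce, had 18.8 and 19.1 CPM in 30FR at 3 h, against 33.6 and 31.0 CPM in 21WL, and fell by 0.77 on the log2 scale (FDR 2.80e-06, edgeR). It also fell in 21FR at 3 h by 0.49 and in 30WL by 0.40 (FDR 0.00593 and 0.00208). GA3OX1, which makes bioactive gibberellin, was higher in 30FR at 1 h (62.9 and 71.0 CPM, against 29.7 and 27.9 CPM in 21WL, log2 fold change 1.22, FDR 0.000106) and lower at 24 h (6.39 and 5.28 CPM, against 12.6 and 12.5 CPM in 21WL, -1.10, FDR 0.00190, edgeR). GA3OX1 was also higher in 30WL at 1 h (0.65, FDR 0.0215) and lower in 21FR at 3 h (-1.07, FDR 0.0221, edgeR). XERICO, a RING-type gene of the list, rose in 30FR at 1 and 6 h by 0.92 and 0.65 (FDR 4.85e-05 and 0.00193). It rose in 30WL at the same times by 0.51 and 0.64 (FDR 0.0111 and 0.00586, edgeR).

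The GASA genes are a family of small peptides, several of which gibberellin induces. Of 8 measured members (9 listed, 32 tests), 1 test was higher in 21FR, 10 higher and 1 lower in 30WL, and 13 higher and 1 lower in 30FR. Among all gene tests, 0.572, 16.9 and 24.7% passed in 21FR, 30WL and 30FR, in either direction. At 1 h GASA1 had 161 and 141 CPM in 21FR, 683 and 781 CPM in 30WL and 718 and 537 CPM in 30FR, against 169 and 187 CPM in 21WL. It rose by 2.04 in 30WL and by 1.82 in 30FR on the log2 scale (FDR 3.59e-06 and 8.75e-06, edgeR). GASA6 rose in 30FR at each time, by 1.40, 1.48, 1.47 and 1.82 on the log2 scale (highest FDR 2.10e-05, edgeR). It also rose in 30WL at each time, by 0.55, 1.06, 0.99 and 1.82 (highest FDR 0.0437, edgeR). In 21FR it rose at 24 h alone, by 0.935 (FDR 0.0204, edgeR). SCL3, XERICO, GA3OX1, GA20OX2 and BOI each stand in 2 of the lists, and the lists were described by counts, not tested as sets.

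The DNA before the genes was searched for the letters that PIF proteins are known to bind, the G-box CACGTG and the PBE-box CACATG or CATGTG, on both strands. In the 1000 bases before the annotated start, GAI was the one of the 9 genes with a G-box, which 14.8% of 27443 such stretches of the genome hold. A PBE-box stood before 5 of the 9 genes, GAI, RGL2, RGL3, GID1A and GID1B, and before 37.7% of all. Within 250 bases of the start, 0 of the 9 genes had a G-box and 1 a PBE-box, beside 6.49 and 11.1% of all. The GAI G-box began 911 bases before the start. It is shown, in capitals, in the 60 bases around it, as the only G-box found before the 9 genes. This stretch lies at chr1:5148044-5148103 on the plus strand (RefSeq TAIR10.1).
GAI upstream: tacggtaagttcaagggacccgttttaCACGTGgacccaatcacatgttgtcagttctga

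A PBE-box also lies in lower case within this stretch, 897 bases before the start. A match of letters is a description of the sequence and not a bound site.

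Over the 16 group means of log2 CPM, the Pearson correlation was 0.88 between GAI and RGA, 0.84 between RGL2 and RGL3, 0.80 between GID1A and GID1B, and 0.29 between GID1A and GID1C. Between GAI and the receptors it was -0.29 for GID1A, -0.32 for GID1B and 0.20 for GID1C, and between RGL1 and GID1B -0.72. Each value is a description over 16 points that share their conditions and libraries. Among 15430 genes with a mean of at least 5 CPM, the profiles closest to GAI were those of AT1G01260 (r 0.956), AT5G12050 (0.945) and the auxin-responsive SAUR20 (0.944). The closest to RGA were EXP3 (0.930), DGR2 (0.927) and ABCB19 (0.917). For the lower members the closest were XT2 for RGL1 (0.919), AT5G18525 for RGL2 (0.858), REN1 for RGL3 (0.879), AT4G37240 for GID1A (0.922) and AT2G32150 for GID1C (0.948). SAUR20 had group means between 1.52 and 14.5 CPM and EXP3 between 26.9 and 65.6 CPM.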

How the data were processed

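Counts were deposited by the authors without normalization. According to the paper's methods and the submitters' processing notes, reads had been aligned to TAIR10 by STAR 2.5.4, and HTSeq 0.6.0 gave strand-aware counts for each gene. Reads without a gene (2.47 to 3.58%) and the other summary lines were left out. The authors' normalized table was not used.

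The filter asked for over 1 CPM in 2 or more libraries and left 20145 of 33602 genes. TMM factors and the fit came from edgeR 4.0.16 (R 4.3.3), with 1 coefficient for each of 16 groups and a shared estimate of the spread (common biological coefficient of variation 0.115). All 32 libraries entered the fit. Contrasts were tested with the quasi-likelihood test, adjusted by Benjamini-Hochberg over all genes kept, and passed at an FDR under 0.05. The procedure was tested on simulated data. With 2 libraries a group, precision rests on the shared spread. By the study's methods, replicates were separate pools of plants, so that p-values measure the spread between such pools.

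The 9 genes, the lists and the tests were chosen with earlier results of these data known. All 9 genes are described. Beside them are named up to 3 genes with the profile closest to a member that passed over 21WL (log2 of CPM plus 0.5), and up to 4 passing genes per list by smallest FDR. As alternatives, each time point was fitted alone, and the following were tried: DESeq2 1.42.0, its size factors within edgeR, the likelihood ratio test, no filter, the replicate number as a block, a fold change minimum, each library left out, and robust dispersions. Sequences and positions came from RefSeq TAIR10.1 with Python 3.11.15 and Biopython 1.88.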

Additional observations from a re-analysis of the deposited data

How the results depend on the processing

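Each comparison held 36 tests of the 9 genes, and the control time course 27. Over 21WL, 5 passed for 21FR, 2 for 30WL and 11 for 30FR, beside 0.572, 16.9 and 24.7% of all gene tests. In 30FR over 21FR 9 passed and in 30FR over 30WL 6, beside 24.8 and 1.16% of all gene tests. The interaction and the control time course gave 0 each, beside 0.00372 and 1.96%. Fits of each time point alone had fewer libraries to share the spread. In them the counts of passed tests were 2 in 21FR, 0 in 30WL, 4 in 30FR over 21FR and 2 in 30FR over 30WL. With an absolute log2 fold change over 1 also asked for, they were 0 in 21FR, 0 in 30WL, 2 in 30FR over 21WL, 0 in 30FR over 21FR and 3 in 30FR over 30WL. The control time course gave 1 in edgeR's likelihood ratio test and 1 in DESeq2. With 1 of the 32 libraries left out, the counts were 4 to 5 in 21FR, 1 to 2 in 30WL, 9 to 15 in 30FR over 21WL, 5 to 10 in 30FR over 21FR, 4 to 6 in 30FR over 30WL, 0 to 0 for the interaction and 0 to 1 in the control time course. DESeq2's size factors, no filter and robust dispersions, the last chosen after seeing the data, left each count within 1.5 times. No member's passed difference turned its sign under any of these settings. The replicate numbers were not taken as pairs, since same-numbered libraries of 1 time did not deviate together consistently (correlations between -0.6 and 0.59). Both extremes were at 6 h, where some replicate differences were thus shared between conditions, in the same or the opposite direction. With the replicate number as a block, the counts were 5 in 21FR, 2 in 30WL, 11 in 30FR over 21WL, 9 in 30FR over 21FR, 6 in 30FR over 30WL, 0 for the interaction and 0 in the control time course. With 2 libraries a group, and 29 to 208 counts a library for RGL1 and RGL3, small differences of these genes were not detectable.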
